A study of Arabidopsis thaliana with 32 samples.

Results

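This is an account of Arabidopsis roots harvested 3 h after the end of a heat treatment, set against roots harvested 1 h after it. The 4 arrays, 2 for each time, were taken by their labels from 32 arrays of the series, which covered roots and shoots at 8 times. Both groups were wild-type Col-0 plants grown on Murashige and Skoog medium in a growth room at 24 °C with 16 h days. Heating to 38 °C began on day 16, after 3 h of light, and lasted 3 h for both groups, and recovery was at 25 °C. The arrays at 3 h of recovery were therefore taken 6 h after heating began and those at 1 h of recovery 4 h after, so time in recovery and time of day cannot be told apart. No unheated plants were used here. Nothing in the labels says whether the 2 arrays of a group came from separate plants, cultures or pools, so the tests measure the spread between arrays, which may be technical.

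Heat makes plant cells produce chaperones, proteins that keep others from clumping or help them fold again, under the control of heat shock factors. When the temperature returns to normal, this transcription stops, the transcripts decay, and genes of growth and routine metabolism that were turned down under heat are transcribed again. Roots share the response with shoots, but they lack most photosynthetic gene expression and hold a growing tip with dividing and elongating cells.

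Each value is an array signal of a probe set, a group of short probes for 1 transcript, in MAS5 units in which an array's trimmed mean is about 100. Of 22746 probe sets for genes, 16782 were bright enough in at least 1 of the 16 groups to be tested, and 9238 of these had 1 named gene. The groups were compared with limma on log2(signal + 10.7). To pass, a probe set needed a log2 difference, 3 h minus 1 h of recovery, of at least 1 in size, a fold of 2, together with an adjusted p-value under 0.05. Replicate arrays correlated at 0.991 at 3 h and 0.990 at 1 h of recovery. The 16 nuclear photosynthesis genes used as shoot markers were all dimmer on each of the 4 root arrays than on each of the 4 shoot arrays of the same times. In roots 1 of the 16 passed, against 2.06% lower among all probe sets tested, and their median log2 difference was -0.23. LHCB4.2 of the light-harvesting antenna was the gene that passed, lower at 3 h with 38.1 and 36.5 against 78.1 and 98.6 at 1 h. Without the second array at 1 h LHCB4.2 was at -0.89, which does not pass. The 3 root markers EXPA7, EXPA18 and PYK10 did not pass, with log2 differences of 0.22, 0.50 and 0.70. The 25S ribosomal RNA control probe set, one measure of the RNA that was labelled, read 2134 and 2320 at 3 h of recovery against 867 and 813 at 1 h. The ratio of the 3′ to the 5′ actin probe set was 13.7 and 13.3 at 3 h against 10.5 and 9.61 at 1 h. In whole roots, fewer cells of a type and less RNA per cell cannot be told apart.

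Between 1 h and 3 h of recovery, 456 probe sets were higher at 3 h, which is 2.72% of those tested, and 345 were lower, which is 2.06%. The decreases were the larger changes: 37 probe sets fell by 2 or more on the log2 scale and 14 rose by as much. The median difference of all probe sets tested was 0.01. All 801 that passed had both arrays of one group beyond both arrays of the other, as did 70.7% of all probe sets tested, so the minimum difference and not the spread between arrays set most calls. With no minimum difference, 5986 probe sets had an adjusted p-value under 0.05. A name for a single gene was at hand for 404 of the 801, and 96 of these had a symbol and not only a locus number.

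**Figure D1:**
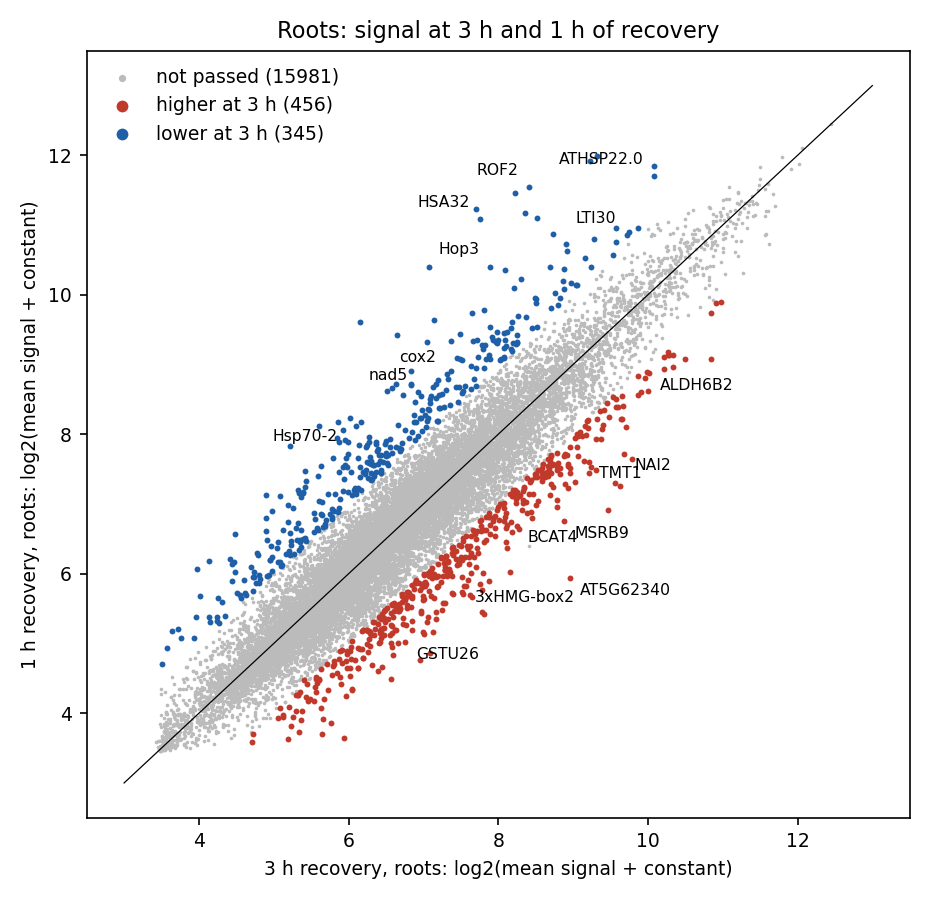
Mean signal of each tested probe set in roots at 3 h of recovery (horizontal axis) and at 1 h of recovery (vertical axis), both as log2(signal + 10.7), with equality as the line. The 345 probe sets that were lower at 3 h (blue) lie above the line and reach farther from it, with HSA32, ROF2 and Hop3 among them, than most of the 456 that were higher (red).

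Among probe sets with a gene symbol, the largest decreases were those of HSA32, ROF2 and Hop3. All are members of the co-chaperone list, which also holds heat tolerance genes such as HSA32. Many of the 37 probe sets that fell by 2 or more have no symbol. HSA32, a heat-stress-associated protein needed for heat tolerance to last after acclimation, read 187 and 225 at 3 h of recovery and 2122 and 2191 at 1 h. Its level, on the scale of signal + 10.7, was 10.05 times lower at 3 h, a log2 difference of -3.33 ± 0.24 (SE, adjusted p = 3.37e-10, limma). HSA32 had read 37.2 and 50.4 at 0.25 h of heat and 4603 and 4319 at 3 h of heat, so on the log2 scale most of its descent took place between 1 h and 3 h of recovery. ROF2, a peptidyl-prolyl isomerase that binds HSP90, read 257 and 402 at 3 h and 3005 and 2926 at 1 h, a log2 difference of -3.16 ± 0.22. For both genes the groups were far apart, although the 2 arrays at 3 h differed from each other more, relative to their level, than those at 1 h did.

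Hop3, which links HSP70 to HSP90, followed with 210.3 and 243 at 3 h and 1260.1 and 1419.8 at 1 h, a log2 difference of -2.51 ± 0.20. Fes1A, which protects cytosolic HSP70 from breakdown, read 154 and 231 at 3 h and 593 and 675 at 1 h. SGT1A, a co-chaperone of HSP90 that also acts in disease resistance, read 28.2 and 30.8 at 3 h and 85.1 and 106 at 1 h. Fes1A and SGT1A had read 3054 and 2912, and 515 and 405, at 3 h of heat. Unlike HSA32 and ROF2, they had made most of their log2 descent from there to 3 h of recovery by 1 h of recovery. These 5 are the members that fell among the 11 measured genes of the co-chaperone list, and none rose, against 2.06% lower among all probe sets. The median log2 difference of the 11 was -0.75 and 10 were below 0. Hop1 and Hop2, the other Hop genes, did not pass, with 0.45 and -0.69, and neither did BOB1, a chaperone needed in development and heat tolerance, with -0.75.

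Of the 5 chaperones proper measured under a symbol, 3 fell and 2 did not pass, against 2.06% lower among all probe sets. Hsp70-2, a member of the HSP70 family, read 41.5 and 64.4 at 3 h and 173 and 228 at 1 h, a log2 difference of -1.74 ± 0.26. ATHSP22.0, a small heat shock protein of the endoplasmic reticulum, read 859 and 1285 at 3 h and 3164 and 3482 at 1 h. It stayed well above its level at 0.25 h of heat, where it had read 14.6 and 13.3. Cpn60beta2, a subunit of the plastid chaperonin, read 197 and 231 at 3 h and 835 and 899 at 1 h, a log2 difference of -1.97 ± 0.11. The other members of the HSP90, HSP100 and HSP60 list, Cpn60beta3 and Cpn60beta4, had log2 differences of -0.05 and -0.03, and the median of its 3 members was -0.05. Of the 12 named genes of folding and degradation in the endoplasmic reticulum none passed, and their median was -0.05.

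Several loci without a symbol also fell and are given by locus alone. AT1G53540 read 404 and 853 at 3 h of recovery and 3793 and 4297 at 1 h, a log2 difference of -2.76 ± 0.31. AT1G52560 read 51.8 and 118 at 3 h and 334 and 453 at 1 h. It had read 4846 and 4764 at 3 h of heat, so it had lost most of its signal before the first recovery harvest. AT1G72660, AT5G47830 and AT1G30070 each fell by 2.12 on the log2 scale. On AT1G53540, AT1G52560 and AT1G30070 the second array at 3 h read about double the first, with 69.7 and 138 for AT1G30070. The groups still did not overlap, as was so for all 801 probe sets that passed.

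**Figure D2:**
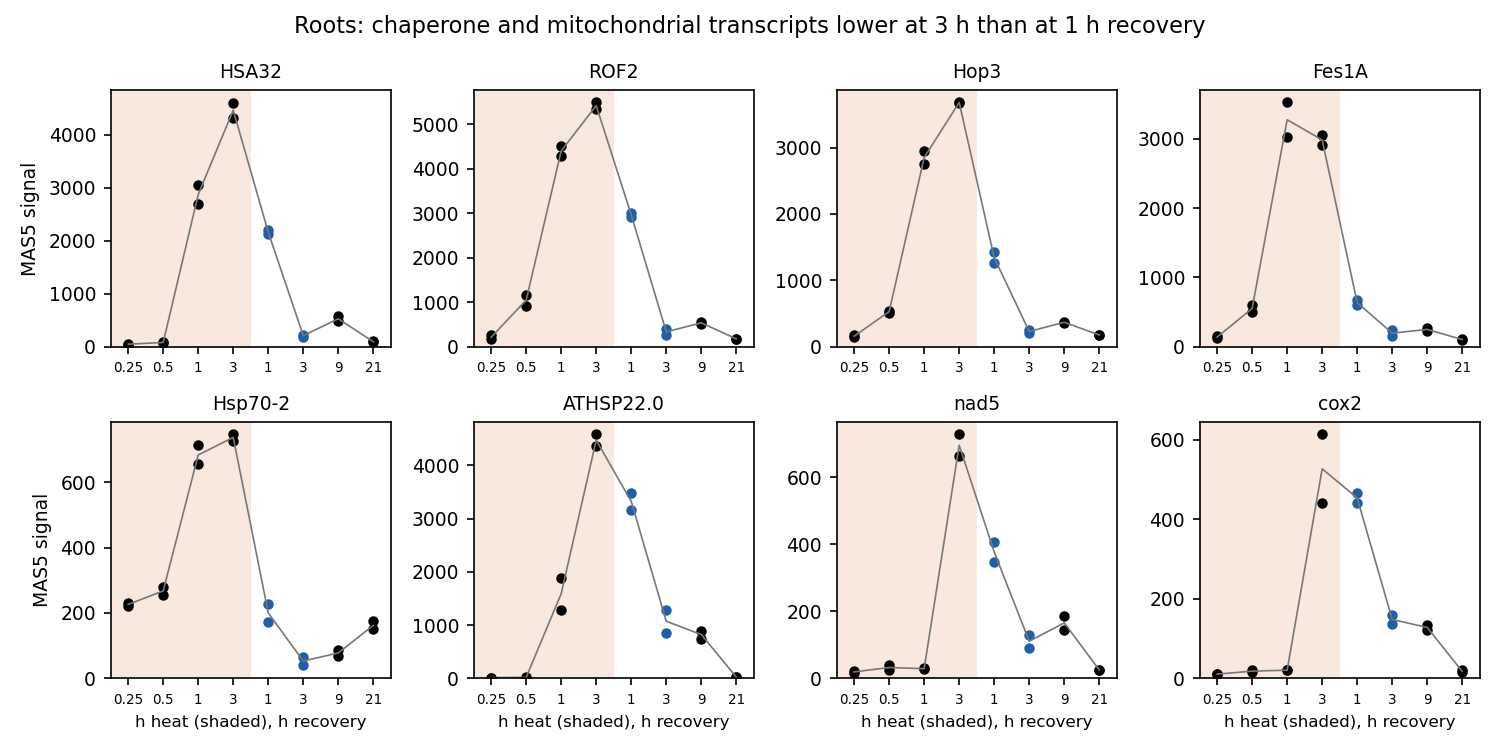
Signal of 8 transcripts on each of the 16 root arrays, 2 per time, by hours of heat (shaded) and then hours of recovery, with the line through the means and the 1 h and 3 h recovery arrays in blue. HSA32, ROF2, Hop3 and ATHSP22.0 were still high at 1 h of recovery and lower at 3 h, whereas Fes1A and Hsp70-2 had already dropped by 1 h, and nad5 and cox2 were near their lowest until 1 h of heat and highest at 3 h of heat or 1 h of recovery.

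Most of the measured transcripts of the mitochondrial genome fell. Plant mitochondria encode some subunits of the respiratory chain and of the machinery that assembles cytochrome c, and their transcripts are mostly not polyadenylated. Of 15 such genes measured, 10 were lower at 3 h and none was higher, with a median log2 difference of -1.05. Among all probe sets tested 2.06% were lower and 2.72% higher. nad5, a subunit of complex I, read 91.3 and 130.5 at 3 h and 347 and 408 at 1 h on its more changed probe set, a log2 difference of -1.69 ± 0.18. On its other probe set the difference was -1.02 ± 0.13. cox2, a subunit of cytochrome oxidase, read 138 and 159 at 3 h and 467 and 441 at 1 h, a log2 difference of -1.55 ± 0.18. The groups of arrays did not overlap on any of these probe sets, as was so for all 801 that passed and for 70.7% of all tested.

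nad4L, also of complex I, read 156 and 190.2 at 3 h and 519 and 534 at 1 h. nad6 and nad9 of complex I, cox1 of cytochrome oxidase, the intron maturase matR and the cytochrome c maturation genes ccb382 and ccb452 fell by 1.12, 1.08, 1.08, 1.15, 1.05 and 1.01. Of 7 probe sets for nad1, 5 fell, and the other 2 were dim and did not pass. nad7 and nad4, with -0.86 and 0.13, did not pass either. Most members lay close to the minimum difference, and without the first array at 3 h the count was 6 of 15 and not 10. In that fit cox1, nad9, ccb452 and the second nad5 probe set were at -0.95, -0.91, -0.95 and -0.86, and 2 of the nad1 probe sets were at -0.97 and -0.90. Without the first array at 1 h ccb452 was at -0.93, and without the second at 1 h the second nad5 probe set was at -0.90. The levels at 1 h were themselves raised: cox2 had read 11.5 and 9.78 at 0.25 h of heat and 441 and 614 at 3 h of heat. At 3 h against 0.25 h of heat 14 of the 15 genes were higher, against 6.05% of all probe sets tested.

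A stretch of chromosome 2 in Col-0 carries a nuclear copy of the mitochondrial genome, and array probes cannot tell the copies apart. Of 23 loci measured between AT2G07660 and AT2G07799, a set chosen after the values were seen, 13 were lower at 3 h and none higher, with a median of -1.05. AT2G07777 read 53.6 and 61.7 at 3 h and 260.0 and 274 at 1 h. AT2G07695 read 41.8 and 53.8 at 3 h and 224 and 226 at 1 h. The 25S ribosomal RNA control moved the other way between these times and its part in the result was not tested. In heat, the control read 2230 and 2601 at 0.5 h, when nad5 read 39.05 and 25.5, and 3385 and 2775 at 3 h, when nad5 read 663 and 729. Of 69 plastid-encoded genes 1 rose, psaC, a subunit of photosystem I, and none fell, shares no larger than the 2.72% higher and 2.06% lower among all probe sets. Their median was -0.13.

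Other decreases were in transcripts with no place in the chaperone lists. PDF1.4, a plant defensin, read 43.3 and 51.03 at 3 h and 281 and 275 at 1 h, a log2 difference of -2.32 ± 0.30. ATG8H, a ubiquitin-like protein of autophagosome membranes, read 150.2 and 179 at 3 h and 561 and 512 at 1 h, a log2 difference of -1.65 ± 0.13. ATG8H was the one member to pass among 11 autophagy genes, of which 9 were below 0 with a median of -0.27. The share of all probe sets tested that fell was 2.06%. CUTA, a chloroplast protein that binds copper, read 112 and 94.9 at 3 h and 391 and 420.4 at 1 h. STR18, a sulfurtransferase, read 364 and 338 at 3 h and 981 and 879 at 1 h. PDF1.4, ATG8H, CUTA and STR18 had all been higher at 3 h than at 0.25 h of heat.

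A second kind of decrease was in transcripts that stood higher at 1 h of recovery than at 3 h of heat, a contrast that was not tested. PRN, a pirin that binds the G protein alpha subunit, read 218 and 203 at 3 h and 633 and 584 at 1 h, after 308 and 349.6 at 3 h of heat. SE, a zinc finger protein of microRNA processing, read 64.0 and 71.6 at 3 h and 168 and 160.3 at 1 h, after 124 and 133. AT2G38870 read 124 and 119 at 3 h and 701 and 561 at 1 h, after 277 and 369, with a log2 difference of -2.27 ± 0.14. In each of the 3, picked for this pattern, both arrays at 1 h of recovery were above both arrays at 3 h of heat. The share of all probe sets separated in this way was not counted. LTI30, a dehydrin that protects membranes in cold and drought, read 817 and 850.4 at 3 h and 1657 and 2019 at 1 h, after 1352 and 1335. Its log2 difference was -1.12 ± 0.18, and -0.98 without the second array at 1 h. No other of the 7 abscisic acid and cold response genes passed. WRKY22, a transcription factor of immunity, fell by 1.23, and the other 5 WRKY factors measured did not pass. Both counts stand beside 2.06% lower among all probe sets tested.

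The increases began with loci that have no symbol. AT5G62340 read 507 and 465 at 3 h of recovery and 42.7 and 58.0 at 1 h, 8.19 times higher, a log2 difference of 3.03 ± 0.21 (adjusted p = 1.63e-10, limma). AT5G62330, the locus numbered next to it, read 50.1 and 51.4 at 3 h and 1.65 and 1.84 at 1 h, near the floor of the signal. Both had been high in the first hour of heat, at 657 and 545 for AT5G62340 and 59.3 and 34.1 for AT5G62330 at 1 h. AT3G27950, AT5G16250, AT3G02640, AT5G54370 and AT5G19250 had log2 differences between 1.98 and 2.23, with AT3G27950 at 127.4 and 122.98 at 3 h and 19.7 and 16.99 at 1 h.

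Single genes of sulfur chemistry, detoxification and defence were among the increases that had a symbol. MSRB9, a methionine sulfoxide reductase, which repairs oxidised methionine, read 479 and 438 at 3 h and 94.2 and 100.1 at 1 h, a log2 difference of 2.12 ± 0.12. It had read 757 and 718 at 1 h of heat and 115 and 96.9 at 3 h of heat, so its signal at 1 h of recovery was still that of the end of the heat. NAI2, needed to form the endoplasmic reticulum bodies that hold defence enzymes in roots, read 876 and 745 at 3 h and 210.2 and 190.4 at 1 h, a log2 difference of 1.96 ± 0.18. BCAT4, which starts the chain elongation of methionine for glucosinolates, read 311 and 279 at 3 h and 87.5 and 97.5 at 1 h. The other member measured of the glucosinolate list did not pass, with -0.05. The 3 h signal of BCAT4 was well short of the 782 and 1004 read at 21 h of recovery, whereas both 3 h arrays of NAI2 were above its 600.6 and 600.8 at 21 h.

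Of 13 glutathione transferases measured, 3 rose and none fell, with a median of 0.13. Among all probe sets tested 2.72% were higher and 2.06% lower. GSTU26 read 95.3 and 99.8 at 3 h and 25.8 and 17.7 at 1 h, a log2 difference of 1.75 ± 0.19. GSTU25 read 62.3 and 59.1 at 3 h and 16.9 and 22.5 at 1 h, a log2 difference of 1.24 ± 0.19. These enzymes attach glutathione to toxic or oxidised compounds, and both had dropped to signals between 16.3 and 22.5 at 3 h of heat. The third, GSTU20, rose by 1.05 ± 0.22 from a dim signal, and by 0.96 without the first array at 3 h or 0.85 without the first at 1 h, which does not pass. Among 40 glucosyltransferases, UGT71C1 and UGT71C2 rose, UGT87A2 fell and the median was 0.03, against the same 2.72% and 2.06%. Without the first array at 1 h UGT71C2 was at 0.96, and without the second at 1 h UGT87A2 was at -0.94, which does not pass either.

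Of 15 cell division and histone genes, 2 rose, none fell and 13 did not pass, with a median of 0.32 and 4 below 0. The share of all probe sets tested that rose was 2.72%. Other genes that bind chromosomes or form the cytoskeleton are given here as single genes, picked from those that passed. The proteins 3xHMG-box2 and 3xHMG-box1 bind chromosomes in mitosis. 3xHMG-box2 read 192 and 160.2 at 3 h and 45.2 and 47.2 at 1 h, a log2 difference of 1.71 ± 0.19. 3xHMG-box1 read 64.0 and 59.3 at 3 h and 18.8 and 20.4 at 1 h, a log2 difference of 1.25 ± 0.19. HIS1-3, a linker histone variant, read 175 and 167 at 3 h and 56.9 and 73.4 at 1 h. BUB3.1, of the spindle checkpoint, rose by 1.08, and by 0.95 without the first array at 3 h, which does not pass. HIS1-3 and BUB3.1 are the 2 members of the list that rose. Its Aurora kinases AUR1, AUR2 and AUR3, which did not pass, had 0.59, 0.39 and -0.28.

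TUB1, a beta tubulin of microtubules, read 100.1 and 99.2 at 3 h and 41.4 and 28.4 at 1 h, a log2 difference of 1.29 ± 0.17. NET1A, an actin-binding protein of membranes, read 119.9 and 118 at 3 h and 46.1 and 46.2 at 1 h. PIR121, of the complex that starts branched actin filaments, read 104 and 106 at 3 h and 38.4 and 40.8 at 1 h. On NET1A and PIR121 the 2 arrays of each group were nearly equal. All 7 genes in a list of commonly used reference genes had values above 0, with a median of 0.54. The tubulins TUB5, TUA6, TUB7, TUB9 and TUB6 had 1.00, 0.72, 0.56, 0.54 and 0.33, while GAPC2 of glycolysis and the ubiquitin-conjugating PEX4 had 0.11 and 0.25. Of these only TUB5 passed, and it was at 0.98 without the first array at 3 h and 0.99 without the second at 1 h.

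Wall and growth genes moved in both directions. Xyloglucan endotransglucosylases, XTH genes, cut and rejoin the polymers that tie cellulose together. XTH20 read 54.5 and 54.3 at 3 h and 10.4 and 14.6 at 1 h, a log2 difference of 1.49 ± 0.16. XTH21 read 21.6 and 26.5 at 3 h and 4.82 and 5.30 at 1 h. The signal of XTH18, by contrast, was 49.2 and 55.8 at 3 h and 148 and 202 at 1 h, a log2 difference of -1.54 ± 0.27. The expansin-like gene EXLA1 fell by 1.18 with an adjusted p of 0.0496, which lay between 0.101 and 0.197 without any one of the 4 arrays. In all, 2 of the 23 wall loosening genes rose and 2 fell, with a median of 0.22. Among all probe sets tested 2.72% were higher and 2.06% lower. SKU5, a membrane-anchored protein of directional root growth, read 609 and 631 at 3 h and 253 and 213 at 1 h, and its relatives sks15 and sks16 rose by 1.36 and 1.38. Prx37, a secreted peroxidase, rose by 1.19, as did AT5G66390 of the same list of 6 by 1.24.

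Transport and metabolic genes included some whose signal at 3 h was the highest of the root course. ALDH6B2, a mitochondrial dehydrogenase of valine breakdown, read 997 and 1057 at 3 h and 439 and 477 at 1 h, a log2 difference of 1.15 ± 0.10. No other root array exceeded 709.8. ALDH2C4, which makes ferulic and sinapic acids, read 1209.8 and 1230.3 at 3 h and 555 and 547 at 1 h. ASPGB1, an asparaginase that releases nitrogen from asparagine, read 182 and 221 at 3 h and 68.0 and 68.3 at 1 h. SWEET16, a sugar transporter of the vacuole, had signals of 93.7 and 115 at 3 h against 38.8 and 42.5 at 1 h. It was the one member to pass among 14 measured genes of sugar transport and starch, with a list median of 0.09. Among all probe sets tested 2.72% were higher. TMT1, a monosaccharide importer of the vacuole, is not in that list. Its signals were 564 and 602 at 3 h against 174 and 195 at 1 h, a log2 difference of 1.60 ± 0.22. For all of these named genes but TMT1 and ALDH2C4, the signal at 3 h of heat had been lower than at 0.25 h by at least 1 on the log2 scale.

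**Figure D3:**
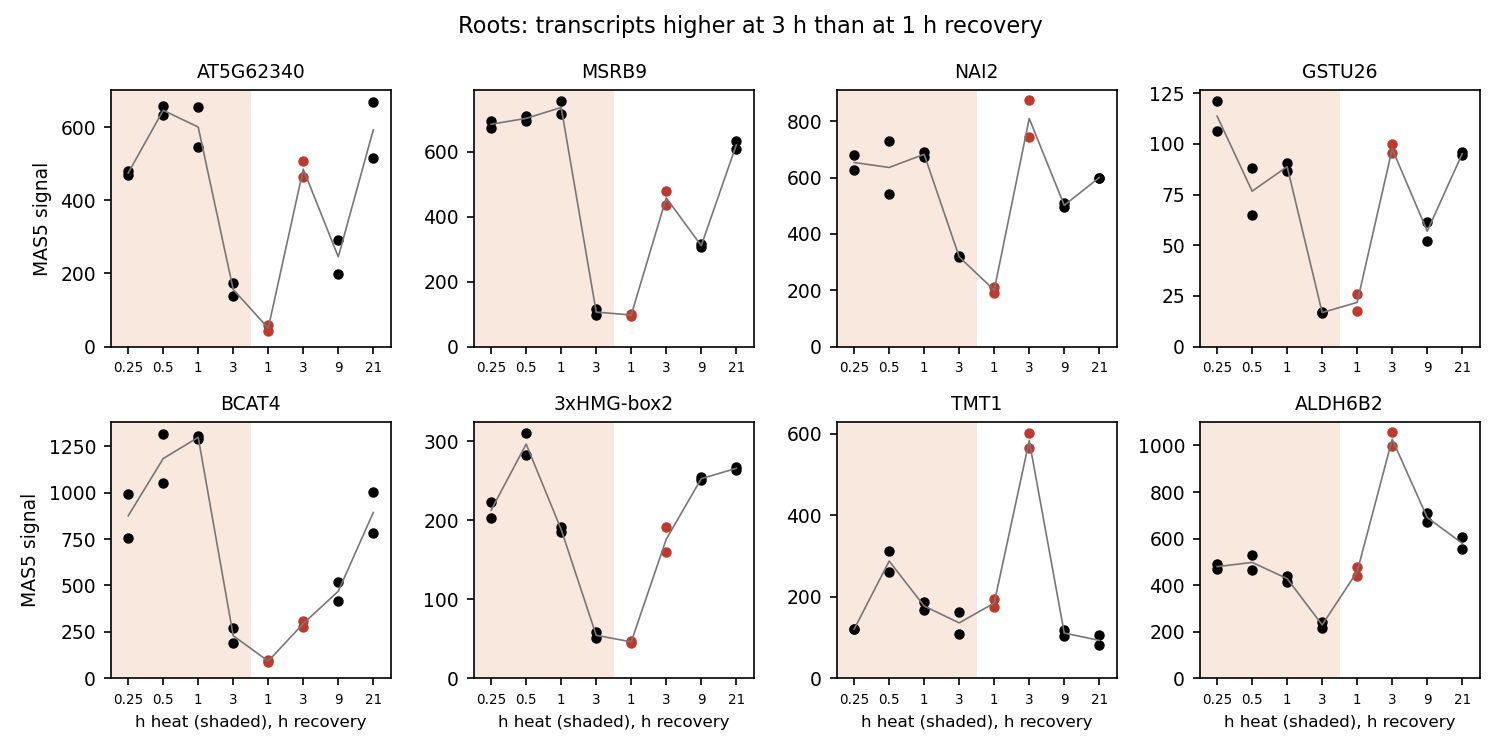
Signal of 8 transcripts on each of the 16 root arrays, 2 per time, by hours of heat (shaded) and then hours of recovery, with the line through the means and the 1 h and 3 h recovery arrays in red. Most were low at 3 h of heat and at 1 h of recovery and higher at 3 h, and NAI2, TMT1 and ALDH6B2 had their highest signal of the course at 3 h of recovery.

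Some of the increases were also seen between arrays that differed in RNA measures and not in treatment. The 2 arrays of shoots at 9 h of recovery are replicates, yet their 25S control read 1270.3 and 88.6 and their actin ratio 9.28 and 3.88. The first of them was higher by at least 1 on the log2 scale for 95 of the 16782 probe sets, which is 0.566%. Of the 456 probe sets that rose in roots, 39 were among these 95, which is 8.55%, and of the 345 that fell, 6 were. They include psaC with 1368 and 467 on the 2 shoot arrays, TMT1 with 258 and 111, the alkaline ceramidase ATCES1 with 92.4 and 26.0, the membrane-sorting protein SNF7.2 with 189.5 and 73.4, and CHIL, of flavonoid synthesis, with 219.8 and 80.8. In roots ATCES1 had 187 and 188 at 3 h and 53.5 and 54.4 at 1 h, and SNF7.2 had 156 and 179.7 at 3 h and 60.5 and 58.7 at 1 h. The part of RNA quality in these root increases was not tested. Without every probe set that differed by 1 or more between those replicates, 417 increases and 337 decreases were left in roots.

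**Figure D4:**
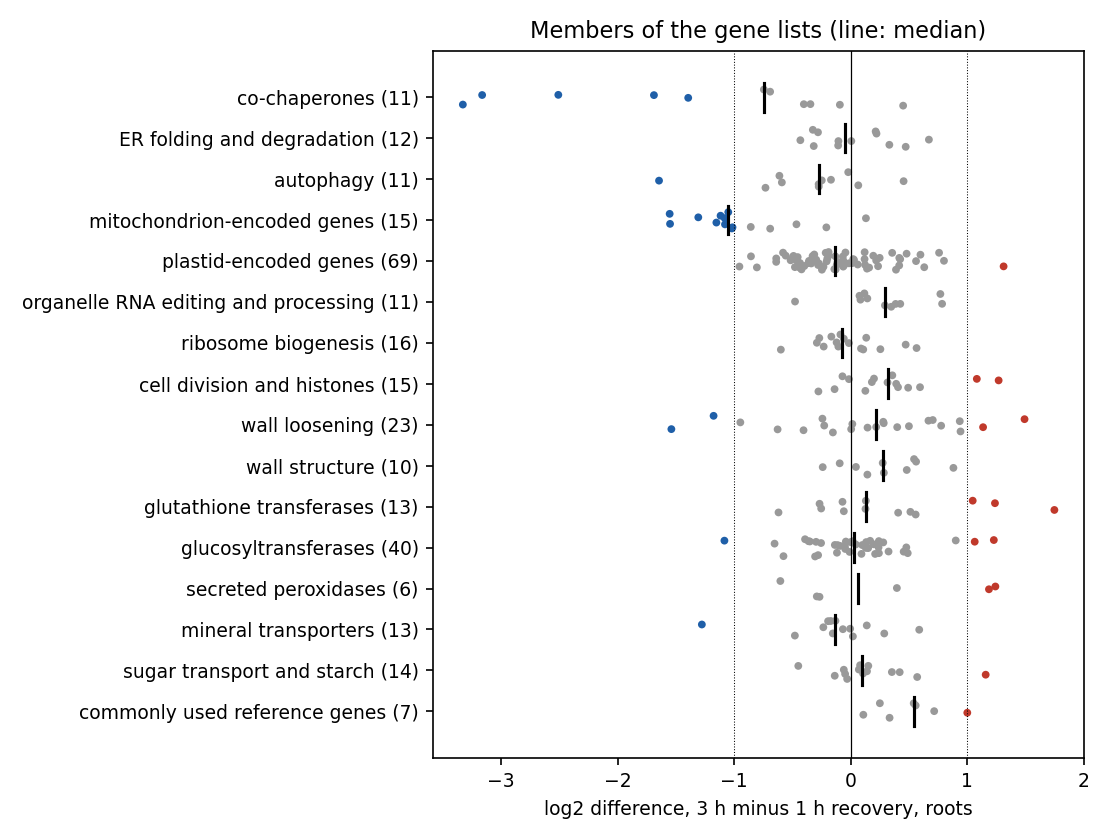
Log2 difference, 3 h minus 1 h of recovery in roots, for each measured member of 16 gene lists (the number measured in brackets), with probe sets that passed in red (higher) and blue (lower), others in grey, the list median as a bar and the limits of -1 and 1 dotted. The co-chaperones and the mitochondrion-encoded genes have medians of -0.75 and -1.05, and the other medians lie between -0.27 and 0.54.

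Most other gene groups had few or no members that passed. None of the 16 ribosome biogenesis genes, the 8 auxin genes, the 11 genes of organelle RNA editing and processing, the 10 wall structure genes or the 12 glutaredoxins, thioredoxins and related genes did. Their medians were -0.07, 0.20, 0.29, 0.28 and 0.04. Of 13 mineral transporters 1 passed: AT2G26690 read 68.5 and 66.9 at 3 h and 163 and 197 at 1 h, a log2 difference of -1.28 ± 0.12. OTP81 and OTP85, which edit plastid transcripts, were nearest among the editing genes with 0.78 and 0.77. In the same fit the background was 2.72% higher and 2.06% lower, so 0 of 8 or of 16 is close to the share of all probe sets.

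The probe sets that differed were then followed through times that the comparison did not use. At 3 h against 0.25 h of heat, 1016 of all probe sets tested were higher (6.05%) and 1539 lower (9.17%). Of the 456 that rose between the recovery times, 199 were lower at 3 h of heat, or 43.6%, and 20 were higher. Of the 345 that fell, 207 were higher at 3 h of heat, or 60%, and 10 were lower. At 21 h of recovery against 3 h of heat, 1715 probe sets were higher (10.2%) and 1135 lower (6.76%). Of the 456, 188 were higher at 21 h, or 41.2%, and of the 345, 212 were lower, or 61.4%. These 2 comparisons share the arrays at 3 h of heat, so they are not independent of each other, but neither uses an array at 1 h or 3 h of recovery.

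Medians against 21 h of recovery show the course. The probe sets that rose had a median log2 of 0.04, 0.18, 0.01 and -0.76 at 0.25, 0.5, 1 and 3 h of heat, then -0.89, 0.32 and -0.23 at 1, 3 and 9 h of recovery. Those that fell had -0.01, 0.09, 0.24 and 1.54 in heat, then 1.24, -0.14 and 0.27 in recovery. The values at 1 h and 3 h of recovery come from the arrays that chose the sets. At 3 h of heat, on arrays that did not choose them, the sets lay on opposite sides of the 21 h level. Their gap at 1 h of recovery, with medians of -0.89 and 1.24, follows in part from the choice.

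**Figure D5:**
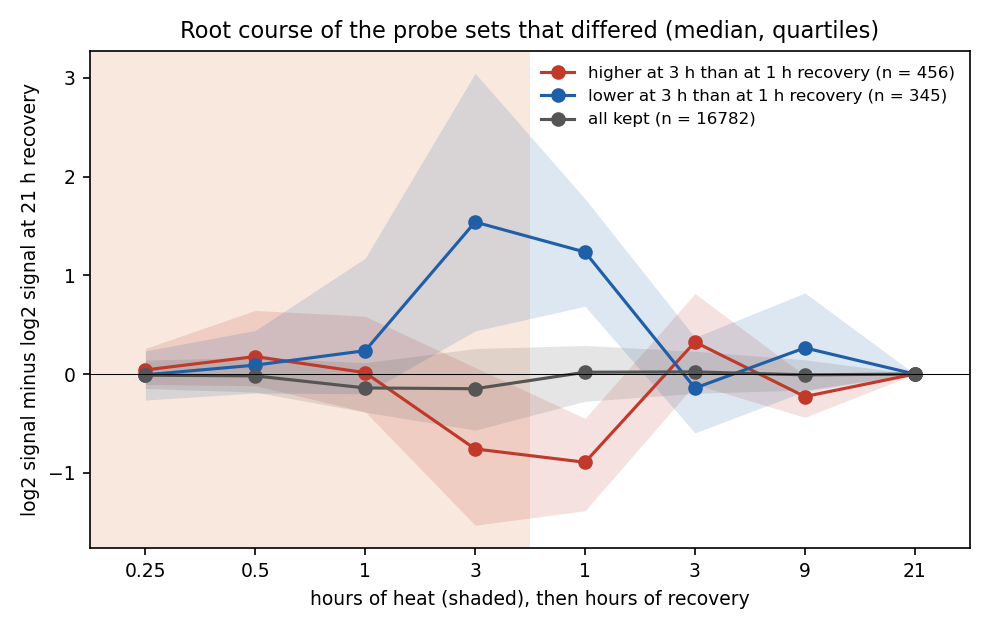
Median (points and lines) and quartiles (bands) of the log2 signal relative to 21 h of recovery at 8 root times, for the probe sets higher (red, 456) and lower (blue, 345) at 3 h than at 1 h of recovery and for all probe sets tested (grey). At 3 h of heat, a time not used to choose the sets, their medians were -0.76 and 1.54. The sets were chosen by their values at 1 h and 3 h of recovery, so the change between those times follows from the choice.

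Shoots of the same age and treatment were compared at the same times, on 4 arrays that the root comparison did not use. There, 513 probe sets were higher at 3 h (3.06%) and 431 lower (2.57%). Of the 456 that rose in roots, 125 rose in shoots and 1 fell. Of the 345 that fell in roots, 94 fell in shoots and 2 rose. The difference between the root and the shoot change was tested in the same fit, and it passed for 479 probe sets where the change was higher in roots (2.85%) and for 437 where it was lower (2.6%). HSA32 fell by 4.09 in shoots and ROF2 by 4.16. Their differences between organs, 0.76 ± 0.33 and 0.99 ± 0.32, did not reach 1 in size. Fes1A fell more in roots, with a difference of -1.19 ± 0.31 (adjusted p = 0.00699, limma), and it was dim in shoots, at 37.3 and 35.1 at 3 h and 56.5 and 54.9 at 1 h. Of the 11 genes of the co-chaperone list Fes1A alone had a difference that passed, and of 15 mitochondrial genes 3 did, all lower in roots. Of these matR had the largest, -1.55 ± 0.24.

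The change was higher in roots than in shoots for AT5G62340, MSRB9, AT5G62330, AT3G27950 and AT5G60520, with differences of 3.21, 2.29, 2.28, 2.10 and 2.10. Shoot signals of AT5G62340, AT5G62330 and AT3G27950 at these times were near the floor, at most 12.2, 1.69 and 13.2. In shoots MSRB9 read 35.4 and 36.8 at 3 h and 34.9 and 49.97 at 1 h, far below its root signal. In roots AT5G60520 read 169.7 and 179 at 3 h and 41.3 and 41.7 at 1 h, while no shoot array of these times was above 10.5. For MSRB5, a relative of MSRB9, it was the shoots that changed: there it read 168 and 143 at 3 h and 658 and 767 at 1 h, while the root change of 0.32 did not pass. The root change of AT1G51840, which read 52.4 and 56.2 at 3 h and 342 and 237 at 1 h, stood against shoot signals of at most 1.31. BCAT4, NET1A, XTH20, GSTU26 and GSTU25 rose more in roots than in shoots by the same test, while TUB1, PIR121, TMT1 and ALDH6B2 did not pass it. The shoot signals of GSTU25 and XTH20 at these times were near the floor, at most 6.80 and 11.9. LTI30, XTH18 and ATG8H fell in roots relative to shoots, with differences of -2.02, -2.19 and -1.29. In shoots XTH18 was near the floor, with mean signals of 3.28 at 1 h and 11.3 at 3 h. LTI30 was dim there, with means of 13.6 at 1 h and 34.9 at 3 h, far below its root signal. The shoot changes of XTH18 and LTI30, 0.65 and 0.90, did not pass.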

How the data were processed

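Total RNA from Arabidopsis roots and shoots was hybridised to ATH1 arrays, 2 per group in 16 groups. The deposited values are linear signal intensities, made by the authors with MAS5 per the submitters' processing notes. The MAS5 version is not given in the sources used here. Every array has a trimmed mean near 100, and the values were not scaled again. The number of arrays limits the precision. Of 22810 probe sets, 64 controls were left out. Of the other 22746, 13513 had 1 named gene, 503 several and 8730 none here, and unnamed probe sets stayed in the tests. Named probe sets were matched to the RefSeq gene table by gene identifier (13436) or locus (48), and 29 found no match.

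The added constant, 10.7, is the 25th percentile of an array, taken as the median of the 32. Probe sets were tested if, in any group, the 2 arrays both exceeded the array's own 40th percentile (16782 did). A model of 16 group means over all 32 arrays was fitted with limma 3.58.1 in R 4.3.3 (lmFit, eBayes with a mean-variance trend), with Benjamini-Hochberg adjustment per contrast. The fit was tested on simulated data. Lists matched symbols and synonyms, with 1 probe set per locus (the brightest), and each was described by counts and median with no set test. Of 37 lists, 34 had a member measured. The comparison and the lists were chosen with earlier results of these data known, list patterns were corrected after probe names were seen, and the heat and 21 h comparisons, the chromosome 2 loci and the check of the shoot 9 h replicates were added after values were seen.

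Genes were named by rule: the 15 largest changes each way among those that passed, with 1 gene, a mean of at least 50 in the brighter group and no overlap between groups; up to 4 members per list; and the 6 largest differences each way between organs. Other genes with a symbol were picked after their values were seen, from the 96 that passed. Genes with several probe sets were tested per probe set.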

Additional observations from a re-analysis of the deposited data

Results flagged for a closer look

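The change from 1 h to 3 h of recovery differed between roots and shoots, by a test of the difference itself, for the 12 genes named by rule. The change was higher in roots for AT5G62340 by 3.21 on the log2 scale, for MSRB5 by 2.44, for MSRB9 by 2.29, for AT5G62330 by 2.28, and for AT3G27950 and AT5G60520 by 2.10 each. It was lower in roots for COR15B (-2.56), COR27 (-2.54), psbD (-2.45), AT5G01720 (-2.30), AT1G07050 (-2.26) and AT1G51840 (-2.21). At these times the shoot signals of AT5G62340, AT5G62330, AT3G27950, AT5G60520 and AT1G51840 were near the floor, at most 12.2, 1.69, 13.2, 10.5 and 1.31. In COR15B, a cold-regulated plastid protein, the roots read 15.3 and 18.4 at 3 h and 22.6 and 21.5 at 1 h, whereas the shoots read 590.1 and 497 at 3 h and 110.4 and 92.1 at 1 h. For COR27, another cold-regulated gene, the shoots read 243 and 252 at 3 h and 39.6 and 23.4 at 1 h, and the root change did not pass. psbD, a plastid-encoded subunit of photosystem II, and AT1G07050 likewise passed in shoots and not in roots. The root signals of AT1G07050 at these times were near the floor, at most 6.07. The root change of AT5G01720 was -0.87 and did not reach 1 in size. The 25S control rose between the 2 times in both organs, and its part in these differences was not tested.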

How the results depend on the processing

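The counts of probe sets that rose (456) and fell (345) stayed within 1.5 times under quantile normalization, 75th percentile scaling, a smaller constant, no filter, a stricter filter, fits of fewer arrays and no mean-variance trend. With a constant 4 times as large they were 177 and 188, and the counts of differences between organs were 208 and 180 and not 479 and 437: a larger constant shrinks log2 differences of dim probe sets by construction. Under it 29 of the 227 values of single genes and lists lost their call. With the 60th percentile filter the differences between organs numbered 314 and 270, from 9577 probe sets tested. With no minimum difference 3185 were higher and 2801 lower. Leaving out 1 array at a time gave 440 to 506 higher and 344 to 385 lower, and 465 to 529 and 391 to 542 for the differences between organs. No pairing by replicate number was seen between the 3 h and 1 h arrays, whose deviations correlated at -0.0226. The replicate block left 456 and 345, as did a block with crossed replicate numbers, so these counts cannot decide whether arrays are paired. Of 802 probe sets with a difference of at least 1 in size 801 passed, so fits that change only the spread could hardly move the counts. Over the fits that leave out 1 array, the root change of COR27 ran from -0.030 to 0.23, that of AT1G07050 from -0.21 to 0.011 that of nad4 from -0.043 to 0.30, that of Cpn60beta3 from -0.11 to 0.00086 and that of Cpn60beta4 from -0.11 to 0.041, so none of these 5 has a settled direction. The 2 arrays a group limit all of these tests, and dim probe sets most.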

Other observations

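Several heat-induced transcripts that were low at 3 h of recovery had a higher signal at 9 h, a pattern picked after the values were seen and not tested. In roots AT1G52560 had 51.8 and 118 at 3 h of recovery, 911 and 757 at 9 h, then 55.0 and 44.1 at 21 h. HSA32 had 187 and 225 at 3 h, 569.7 and 475 at 9 h, then 96.6 and 83.9 at 21 h. Cpn60beta2 had 197 and 231 at 3 h, 431 and 465 at 9 h, then 357 and 411 at 21 h. In these 3 genes both arrays at 9 h were above both at 3 h, and the share of all probe sets with that separation was not counted. SGT1A, in contrast, had 28.2 and 30.8 at 3 h, 33.3 and 29.99 at 9 h, then 41.4 and 44.7 at 21 h. All 4 had been named for being low at 3 h.

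SNF7.2 was higher at 3 h of heat than at 0.25 h, unlike most of the increases. Its 2 arrays read 61.0 and 52.3, 177 and 154, and 199 and 219 at 0.25, 0.5 and 3 h of heat, then 60.5 and 58.7, 156 and 179.7, and 46.2 and 74.7 at 1, 3 and 9 h of recovery. The 25S control of the same arrays read 878 and 566, 2230 and 2601, and 3385 and 2775 in heat, then 867 and 813, 2134 and 2320, and 571 and 279 in recovery. The part of RNA quality in this course was not tested.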
